A study of Mus musculus with 18 samples.

Results

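The transferrin receptor and 9 genes that store, release, move or sense iron were followed in mouse B cells with and without endophilin A2, the membrane-bending protein that Sh3gl1 encodes. The 10 genes (Tfrc, Slc11a2, Steap3, Slc25a37, Fth1, Ncoa4, Aco1, Ireb2, Fbxl5 and Hmox1) were listed by name, and each gene identifier was matched to its symbol in the GRCm38 annotation. They are 10 of the 51912 genes in the deposited table, and all 10 were found once each. Iron genes that the study itself displayed from these data were left out, so the list is not independent of measured values. The libraries came from WT and Sh3gl1-/- mice, both of the C57BL/6 strain, and form 6 groups of 3. Transitional B cells, the newly formed cells on their way to the mature pool, were untreated, as were follicular B cells, the mature recirculating cells. A further set of follicular B cells had been treated with CD40L, the ligand by which helper T cells engage CD40 on the B cell, for 14 h according to the labels, whereas the study's methods describe an overnight culture and its figure legends give a longer time. For the RNA the study's methods describe sorted follicular cells, and WT mice are described as littermates, so the transitional sort is known from the labels alone. The labels give a genotype of the mouse, with no Cre or other transgene, and no age. Follicular cells cultured without CD40L were not analysed here, so the effects of CD40L and of the culture cannot be told apart.

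Cells take up iron mainly as transferrin bound to the transferrin receptor, which is internalized, and the iron is then reduced and exported from the endosome to the cytosol. There it is used, passed to mitochondria for haem and iron-sulfur clusters, or stored in ferritin. When iron is scarce, the iron regulatory proteins bind hairpins in messenger RNA called iron-responsive elements, which stabilizes the transferrin receptor message and blocks translation of ferritin. Because of this, the level of ferritin messenger RNA and the level of ferritin protein can move apart. Proliferating lymphocytes are known for high levels of transferrin receptor.

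The hairpins are shown because Tfrc and Fth1 carry them at opposite ends of the message. A script searched the untranslated parts of annotated transcripts (GENCODE M21, GRCm38) for a bulged C, 5 paired bases, a loop of CAGTGN and 5 paired bases, followed by at least 4 pairs among the 6 positions of the lower stem. Only the sense strand was searched. Of the 10 genes, Tfrc had 4 matches and Fth1 had 1. Capitals mark the bulged C and the 6-base loop, and each sequence has 29 bases, 5′ to 3′ on the plus strand.
Fth1, 5′ untranslated region, chr19:9982732-9982760: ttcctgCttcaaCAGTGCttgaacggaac
Tfrc, 3′ untranslated region, chr16:32631219-32631247: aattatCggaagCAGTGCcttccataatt
Tfrc, 3′ untranslated region, chr16:32631598-32631626: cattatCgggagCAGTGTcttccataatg
Tfrc, 3′ untranslated region, chr16:32631663-32631691: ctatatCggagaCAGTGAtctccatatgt
Tfrc, 3′ untranslated region, chr16:32631710-32631738: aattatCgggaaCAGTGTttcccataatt

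The 4 Tfrc elements began at bases 3315, 3694, 3759 and 3806 of a transcript of 4890 bases, downstream of the coding part, which ended at base 2432. The Fth1 element began at base 87, ahead of the coding part, which began at base 225. A match in the 5′ untranslated region was found for 7 of 21782 protein-coding genes (0.0321%), and one in the 3′ untranslated region for 16 (0.0735%). A match is a description of these letters. The other 8 genes held no match to this pattern, which says only that these letters are not in their annotated untranslated parts.

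**Figure D1:**
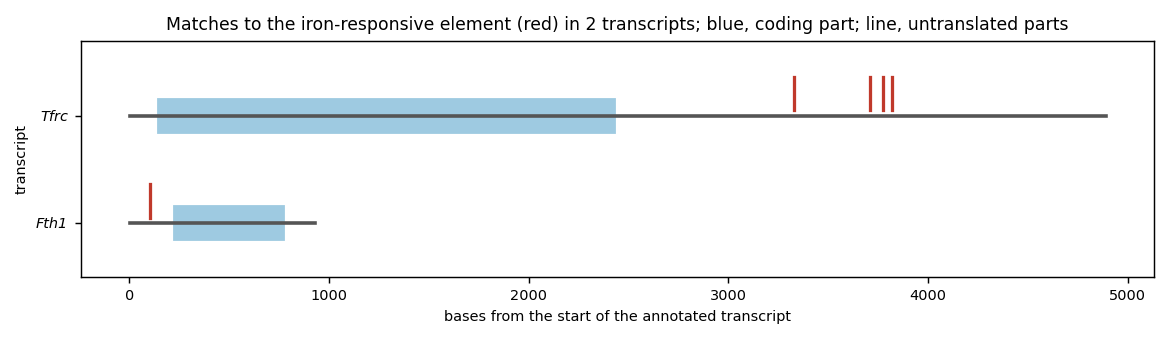
Position of the matches to the iron-responsive element (red ticks) along the annotated transcripts of Tfrc and Fth1, in bases from the transcript start, with the coding part in blue and the untranslated parts as a line. The 4 Tfrc ticks lie beyond the coding part, from base 3315 to base 3806, and the Fth1 tick lies ahead of it, at base 87.

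Total counts per library ranged from 12404665 to 18366011, and 3 counts, used as a floor, corresponded to between 0.176 and 0.240 CPM. CPM are counts relative to library size after TMM, edgeR's correction for library composition, and give a gene's share of the RNA in a library. Fewer cells that carry a transcript and less of it per cell cannot be told apart in such data. Sh3gl1 had between 377 and 929 counts in the 9 WT libraries and between 1 and 22 in the 9 Sh3gl1-/- libraries, so the genotype labels held in each library. The 6 B cell markers were detected in each group. The transitional markers (Cd93, Vpreb3, Rag1 and Rag2) summed to between 342.5 and 620 CPM in the 6 transitional libraries and between 188 and 260 CPM in the 6 follicular libraries, where Rag1 and Rag2 were at 0. Markers of other cells were present ex vivo: 10 erythroid genes summed to between 1435 and 9544 CPM and 11 macrophage genes to between 127 and 1193 CPM. After CD40L culture these sums were at most 364 and 87.6 CPM. No library was a repeat of another: chi-square per degree of freedom was at least 9.88 in each of the 18 pairs within groups.

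Per length, as the authors' TPM, Fth1 was the most abundant of the 10 messages in each of the 6 groups, with means from 169 TPM in Sh3gl1-/- follicular cells to 448 TPM in Sh3gl1-/- CD40L-cultured cells. Steap3 was the least abundant in each group, with means between 0.16 and 1.05 TPM. Fbxl5 and Ncoa4 followed Fth1 in 5 of the 6 groups. In Sh3gl1-/- transitional cells, Hmox1 came next after Fth1, at 64.6 ± 14.0 TPM (SD, n = 3). Tfrc ranked 4 of the 10 after CD40L culture, at 22.3 ± 9.91 TPM in WT and 22.3 ± 8.09 TPM in Sh3gl1-/- cells (SD, n = 3), and it ranked 6 or 7 ex vivo.

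**Figure D2:**
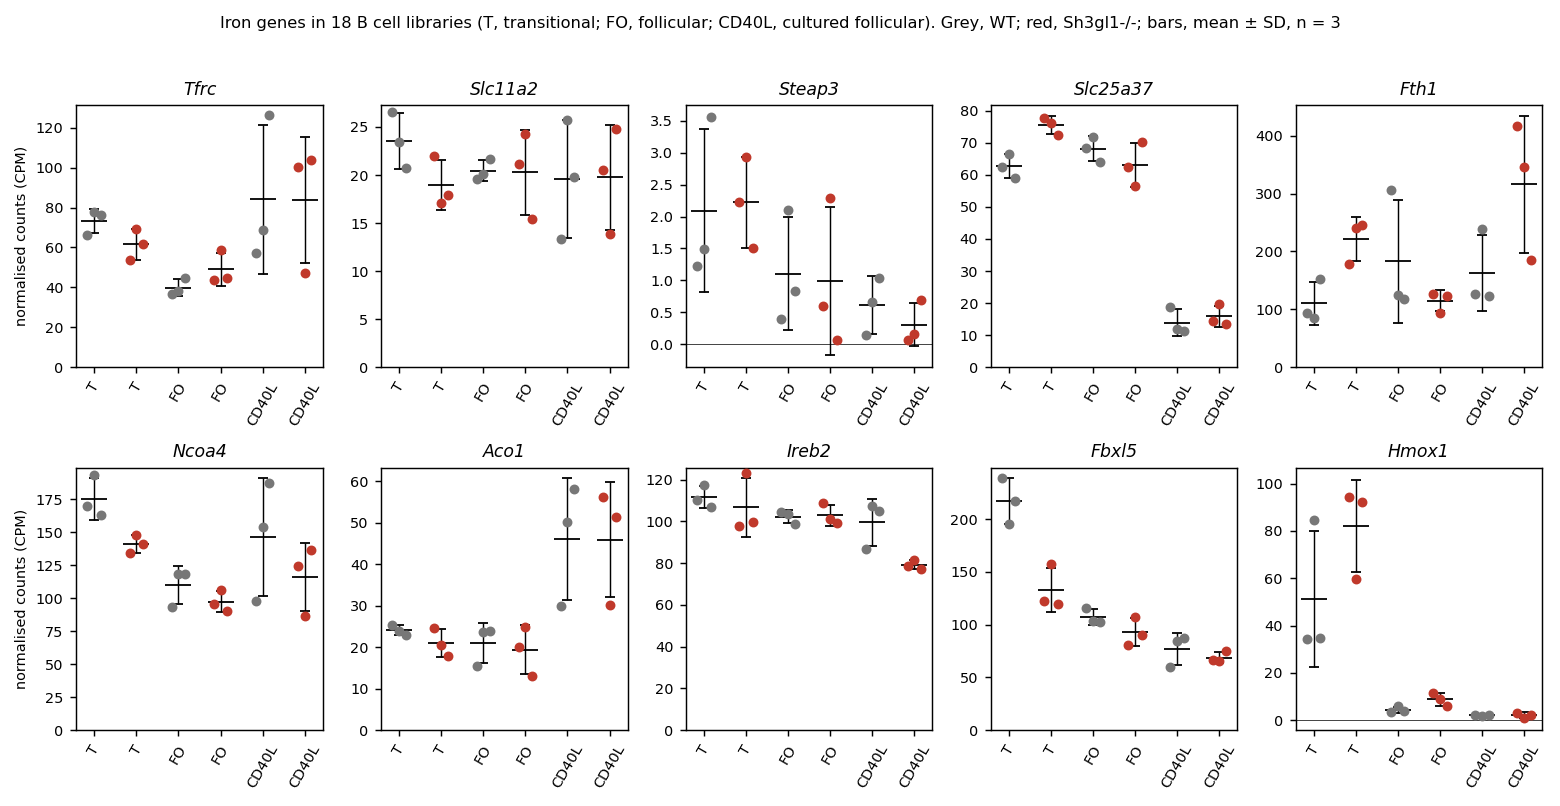
Normalised counts (CPM, linear axes) of the 10 genes in the 18 libraries, grey for WT and red for Sh3gl1-/-, with the mean and SD of 3 libraries per group as bars. Slc25a37 falls to between 11.1 and 19.6 CPM in the CD40L-cultured libraries from at least 56.5 CPM ex vivo, and Hmox1 is above 34 CPM only in transitional cells.

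Tfrc (ENSMUSG00000022797, chr16:32608920-32632794, plus strand), the transferrin receptor, was lowest in WT follicular cells, 2.07-fold higher after CD40L culture, and also higher in WT transitional cells. WT transitional libraries had 66.5, 77.8 and 76.1 CPM of Tfrc, and Sh3gl1-/- transitional libraries had 53.8, 69.2 and 61.6 CPM. Follicular libraries had 36.5, 38.4 and 44.7 CPM in WT and 43.8, 58.6 and 44.5 CPM in Sh3gl1-/- cells. The CD40L-cultured libraries had 57.1, 68.7 and 127 CPM in WT and 100.3, 47.2 and 104 CPM in Sh3gl1-/- cells. In order of their means the groups ran from WT CD40L-cultured (84.1 CPM) through Sh3gl1-/- CD40L-cultured, WT transitional, Sh3gl1-/- transitional and Sh3gl1-/- follicular to WT follicular (39.9 CPM), and each group overlapped its neighbour in that order. WT transitional and WT follicular libraries did not overlap, nor did WT follicular and WT CD40L-cultured libraries.

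The genes whose log2 CPM was most like that of Tfrc over the 18 libraries, among 15116 genes, were Exo1 (Pearson r = 0.92), Ncapg2 (0.92), Gm42427 (0.91), Foxred1 (0.91) and Cenpn (0.91). Exo1 encodes a DNA repair exonuclease, Ncapg2 a subunit of condensin II and Cenpn a kinetochore protein. The least like were Zfhx2 (-0.92), Tm9sf2 (-0.91) and Kmt2a (-0.91). Against the summed CPM of 8 proliferation markers (Mki67, Top2a, Mcm2, Mcm5, Pcna, Tyms, Rrm2 and Ccnb1), Tfrc had a Pearson r of 0.87 on the log2 scale over the 18 libraries and of 0.84 after the group means were taken out. These points share libraries, depth and scaling, and the correlations are descriptions. The relation did not hold within every group. In WT transitional cells and in both cultured groups, the library with the most Tfrc had the highest sum. In Sh3gl1-/- transitional and WT follicular cells that library (69.2 and 44.7 CPM) had the lowest sum (290 and 220 CPM). In Sh3gl1-/- follicular cells it had the middle sum. The WT CD40L-cultured library with 127 CPM of Tfrc had the highest proliferation sum of all, 1469 CPM, while the other 2 of that group had 612 and 653 CPM.

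**Figure D3:**
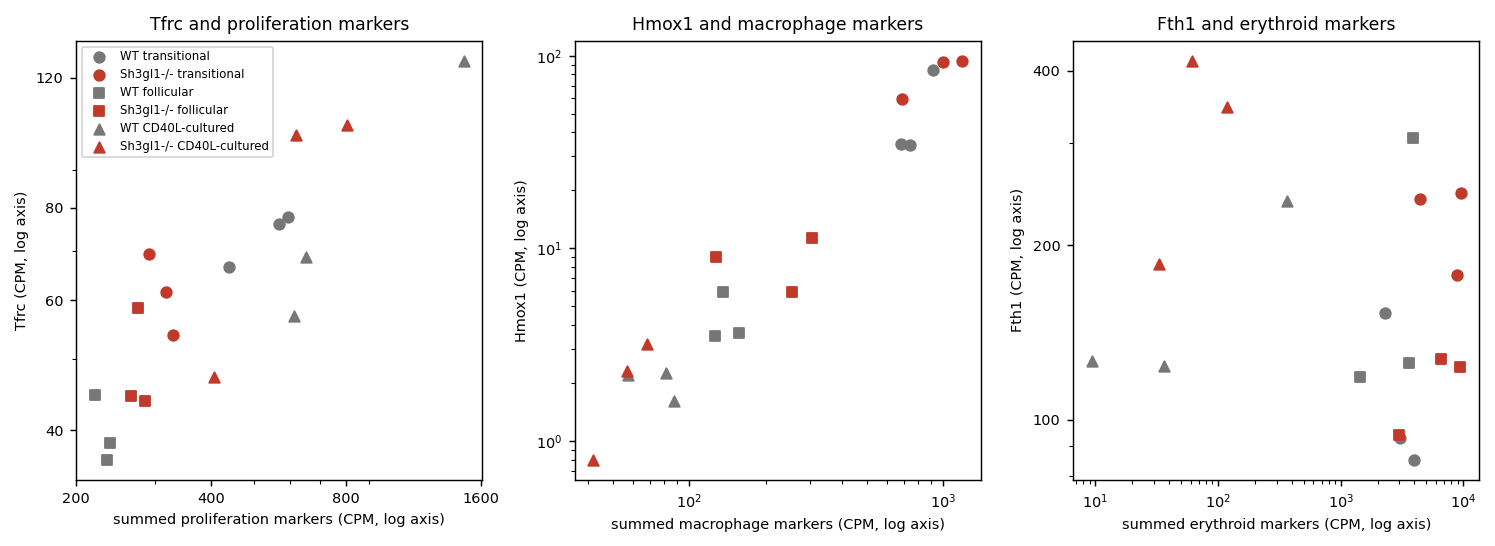
Left, Tfrc against the summed proliferation markers; middle, Hmox1 against the summed macrophage markers; right, Fth1 against the summed erythroid markers, each point a library and all axes logarithmic in CPM. Tfrc is highest, 127 CPM, in the library with the highest proliferation sum, 1469 CPM, and Hmox1 is above 34 CPM only where macrophage markers sum to 684 CPM or more, whereas Fth1 spans 124 to 416 CPM where erythroid markers are at 364 CPM or less.

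The first question was whether loss of endophilin A2 changed these messages. Among transitional cells, 2 of the 10 genes differed between genotypes at an adjusted p under 0.05, Fth1 being higher and Fbxl5 lower in Sh3gl1-/- cells. Across all 13774 genes tested, 3.73% were called. Tests were edgeR's quasi-likelihood test on the counts, with Benjamini-Hochberg adjustment over all genes tested, and log2 changes are fitted log2 fold changes.

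Fth1 (ENSMUSG00000024661, chr19:9980598-9985098, plus strand) encodes the ferritin heavy chain, the subunit that oxidizes iron for storage. WT transitional libraries had 93.1, 85.4 and 153 CPM of Fth1, and Sh3gl1-/- transitional libraries had 178, 240.0 and 246 CPM. The highest WT library was below the lowest Sh3gl1-/- library. The log2 change was 1.003 (SE 0.21, adjusted p = 0.038 in edgeR), a 2.004-fold difference. The call was lost without WT transitional replicate 1 (log2 fold change 0.90, adjusted p = 0.11) or 2 (0.85, 0.11), and without Sh3gl1-/- transitional replicate 1 (1.14, 0.087), 2 (0.95, 0.072) or 3 (0.92, 0.16) in edgeR. It was also lost when all 18 libraries shared 1 fit (adjusted p = 0.17). The summed erythroid markers were also higher, at between 4458 and 9544 CPM in Sh3gl1-/- against between 2286 and 3984 CPM in WT transitional libraries. Of the tested erythroid genes, 6 of 9 were called higher. Other lists were also higher without overlap: neutrophil markers summed to between 56.3 and 102 CPM in WT and between 122 and 580 CPM in Sh3gl1-/- libraries (1 of 10 called). Plasma cell markers went from between 429 and 670 CPM to between 1087 and 4572 CPM (1 of 5 called), and T cell markers from between 65.4 and 103 CPM to between 109 and 173 CPM (1 of 8 called). The part of these cells in the Fth1 difference was not tested. Among WT transitional libraries the one with the most Fth1, 153 CPM, had the lowest erythroid sum, 2286 CPM. Among Sh3gl1-/- transitional libraries the one with the most, 246 CPM, had the highest sum, 9544 CPM. Pearson's r between Fth1 and the erythroid sum on the log2 scale was -0.23 over the 18 libraries and 0.33 over the 12 ex vivo ones. After the group means were taken out it was 0.52. After CD40L culture, where erythroid markers summed to between 9.32 and 364 CPM, Fth1 had 126, 238 and 124 CPM in WT and 416, 347 and 186 CPM in Sh3gl1-/- libraries. Those groups overlapped, and the log2 change of 0.99 (SE 0.32, adjusted p = 0.60 in edgeR) was not called. Neutrophil markers still summed to between 10.3 and 41.9 CPM in WT and between 52.6 and 195 CPM in Sh3gl1-/- cultured libraries, and T cell markers to between 25.1 and 27.2 CPM and between 40.98 and 45.1 CPM. S100a8, a neutrophil marker, was highest among these, at 58.6 CPM, in the library with 416 CPM of Fth1, and the part of these cells was not tested. Ex vivo follicular libraries had 306, 126 and 119 CPM in WT and 127, 94.3 and 124 CPM in Sh3gl1-/- cells. WT replicate 1 stood apart there, and the log2 change was -0.68 (SE 0.30, adjusted p = 0.44 in edgeR). Only 1 other annotated transcript shared at least 200 bases at 90% identity with Fth1, a processed pseudogene with at most 2 counts in a library.

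Fbxl5 (ENSMUSG00000039753, chr5:43744615-43821638, minus strand) encodes the iron-binding F-box protein that targets the iron regulatory proteins for degradation when iron is plentiful. WT transitional libraries had 239, 195 and 217 CPM of Fbxl5, and Sh3gl1-/- transitional libraries had 122, 157 and 119 CPM. No Sh3gl1-/- library reached the lowest WT library. Its log2 change was -0.71 (SE 0.13, adjusted p = 0.026 in edgeR). Summed markers of the sorted stages differed too, but their genes did not all go the same way. Transitional markers summed to between 565 and 620 CPM in WT and between 342.5 and 558 CPM in Sh3gl1-/- libraries. Of these, 0 of 3 tested were called, with mean Vpreb3 lower (525 to 363 CPM) and mean Cd93 higher (64.9 to 75.5 CPM). Follicular markers summed to between 3878 and 5031 CPM and between 5199 and 5767 CPM, with 1 of 3 called higher. Mean Ighd rose from 2829 to 4161 CPM, while Fcer2a (1009 to 929 CPM) and Cr2 (533 to 416 CPM) went down. Proliferation markers went from between 439 and 596 CPM to between 290 and 329 CPM, and the part of these in the Fbxl5 difference was not tested. The adjusted p rose to 0.062, 0.060, 0.11 and 0.12 without WT transitional replicate 1 (log2 fold change -0.63) or 2 (-0.78) and without Sh3gl1-/- transitional replicate 1 (-0.65) or 3 (-0.64). In follicular cells Fbxl5 had 116, 104 and 103 CPM in WT and 81.1, 107 and 89.99 CPM in Sh3gl1-/- libraries, which overlapped, with a log2 change of -0.21 (SE 0.11). After CD40L culture it was -0.13 (SE 0.16), with neither of these differences called. Bst1 and Gm43182 overlap Fbxl5 on the other strand, and 3 predicted genes overlap it on its own strand, so reads may be shared between them.

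The other 8 genes were not called between genotypes in transitional cells. Ncoa4, the receptor that carries ferritin to the lysosome for breakdown, was 163 to 193 CPM in WT and 134 to 148 CPM in Sh3gl1-/- libraries, without overlap (log2 fold change -0.31, SE 0.09, adjusted p = 0.091 in edgeR, 0.024 in DESeq2). Slc25a37, the mitochondrial iron importer mitoferrin-1, was 59.1 to 66.5 CPM in WT and 72.4 to 77.8 CPM in Sh3gl1-/- libraries, also without overlap (0.27, SE 0.09, adjusted p = 0.12 in edgeR). For Tfrc the log2 change was -0.25 (SE 0.11, 95% interval -0.51 to 0.0037, adjusted p = 0.24), with overlapping libraries. Proliferation markers were lower in Sh3gl1-/- transitional libraries, summing to between 290 and 329 CPM against between 439 and 596 CPM in WT, with 6 of 8 called. Their part in the Tfrc value was not tested. The median log2 fold change of the 10 genes was -0.13, against 0.02 over all genes tested.

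In follicular cells ex vivo, edgeR called 0 of the 10 genes, with 3 at an unadjusted p under 0.05, and DESeq2 also called 0. Over all 13610 genes, 0.845% were called. Hmox1 (ENSMUSG00000005413, chr8:75093621-75100589, plus strand), haem oxygenase-1, which breaks haem down and frees its iron, had 3.50, 5.93 and 3.61 CPM in WT and 11.4, 9.06 and 5.94 CPM in Sh3gl1-/- follicular libraries. The lowest Sh3gl1-/- library was level with the highest WT library, 5.94 against 5.93 CPM. Its log2 change was 1.01 (SE 0.31, adjusted p = 0.21 in edgeR). The macrophage markers summed to between 127 and 157 CPM in WT and between 128 and 305 CPM in Sh3gl1-/- follicular libraries, with 0 of 9 called in edgeR, and their part was not tested. For Tfrc the log2 change was 0.30 (SE 0.13, 95% interval 0.0001 to 0.59, adjusted p = 0.46), opposite in sign to that in transitional cells.

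In CD40L-cultured cells, 9 of the 10 genes could be tested, and edgeR called 0 of them, with 2 at an unadjusted p under 0.05, and DESeq2 also called 0. Steap3 did not pass the filter on low counts there. Over all 13188 genes, 0.0227% were called. Ireb2, which encodes iron regulatory protein 2, had 86.6, 107 and 105 CPM in WT and 78.8, 81.7 and 77.4 CPM in Sh3gl1-/- libraries. Each Sh3gl1-/- library was below each WT library, with a log2 change of -0.30 (SE 0.13, adjusted p = 0.70 in edgeR). For Tfrc the log2 change was 0.02 (SE 0.33), with a 95% interval from -0.72 to 0.77 that holds changes in both directions.

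**Figure D4:**
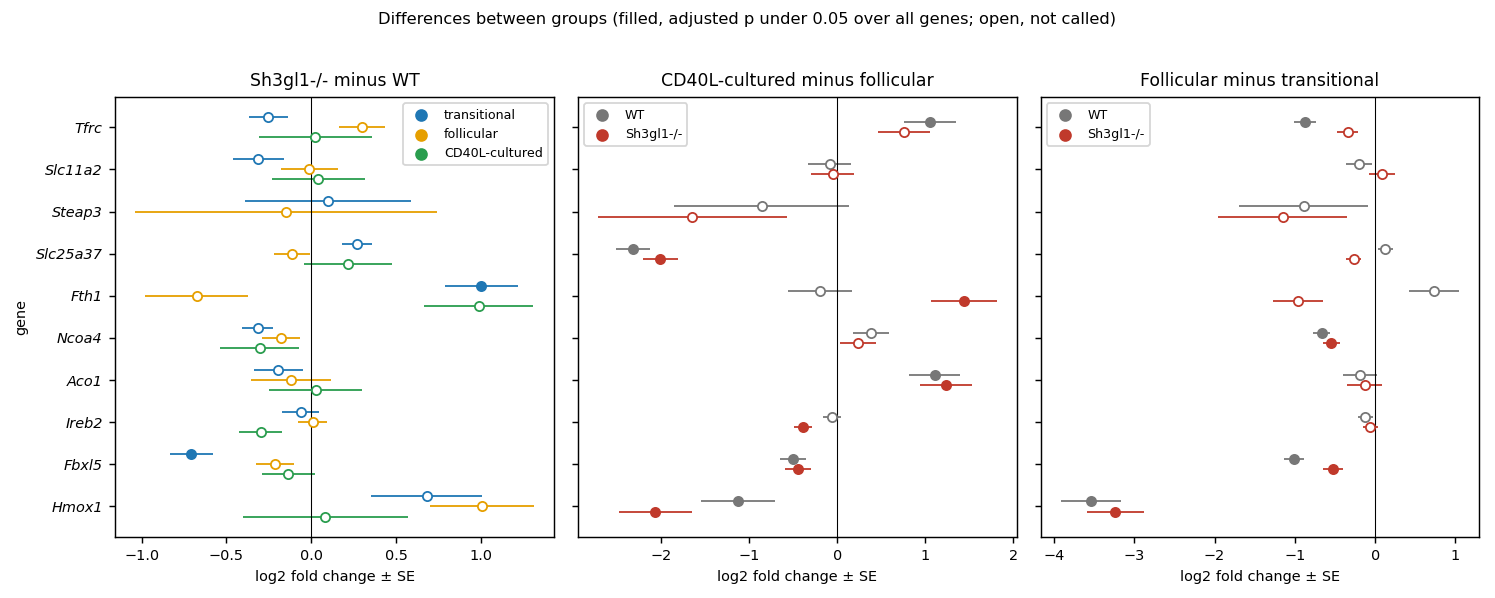
Log2 fold changes with their SE for the 10 genes, between genotypes within each cell state (left), after CD40L culture against ex vivo follicular cells (middle) and in follicular against transitional cells (right). Filled points passed an adjusted p of 0.05 over all genes in edgeR; In the middle panel Slc25a37 is at -2.32 in WT and -2.01 in Sh3gl1-/- cells and Hmox1 at -1.13 and -2.07, and Hmox1 lies lowest in the right panel, at -3.54 and -3.24.

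The second question was how the messages responded to CD40L in each genotype. In WT cells Tfrc and Aco1 rose, and Slc25a37, Fbxl5 and Hmox1 fell. In Sh3gl1-/- cells Aco1 and Fth1 rose, and Slc25a37, Ireb2, Fbxl5 and Hmox1 fell. Of the 10 genes, edgeR thus called 2 higher and 3 lower in WT, where 23.6% of all 14460 genes were called higher and 25.7% lower. In Sh3gl1-/- cells 2 were called higher and 4 lower, against 20.6% and 21.8% of all genes. In WT the share of the 10 called is near that of all genes, and with 10 genes nothing is read from the share in Sh3gl1-/- cells.

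Slc25a37 (ENSMUSG00000034248, chr14:69241848-69285112, minus strand) showed the largest fold after CD40L among the 10 genes in WT cells. It had 68.5, 71.8 and 64.1 CPM in WT and 62.6, 56.5 and 70.2 CPM in Sh3gl1-/- follicular libraries. After culture it had 18.6, 11.9 and 11.1 CPM in WT and 14.6, 19.6 and 13.5 CPM in Sh3gl1-/- libraries. The cultured and ex vivo libraries were far apart in both genotypes. Its log2 change was -2.32 (SE 0.20, adjusted p = 5.49e-07) in WT and -2.01 (SE 0.20, adjusted p = 2.47e-06) in Sh3gl1-/- cells in edgeR, and both calls held under each alternative tried. Mitoferrin-1 is best known from erythroid cells, and the erythroid markers also fell, from sums of at least 1435 CPM ex vivo to at most 364 CPM after culture, with 7 of 8 called lower in each genotype. Within the 12 ex vivo libraries, Slc25a37 had a Pearson r of 0.59 with the erythroid sum, and it spanned 56.5 to 77.8 CPM while that sum spanned 1435 to 9544 CPM. Over all 18 libraries, r with the summed erythroid markers was 0.91, which includes the differences between groups. After the group means were taken out it was -0.18. Their part in the fall was not tested. Predicted genes overlap Slc25a37 on both strands, and Gm16867, which shares 382 identical bases with it, had at most 12 counts in a library.

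Tfrc rose in WT cells, with a log2 change of 1.05 (SE 0.30, adjusted p = 0.0096 in edgeR), and each cultured WT library lay above each ex vivo one. Without WT CD40L-cultured replicate 3, the library with 127 CPM, it was 0.64 (SE 0.26, adjusted p = 0.065). In Sh3gl1-/- cells the log2 change was 0.75 (SE 0.30, adjusted p = 0.054), which was not called, and cultured replicate 2, at 47.2 CPM, lay within the ex vivo range of 43.8 to 58.6 CPM. Without that library the log2 change was 1.05 (SE 0.25, adjusted p = 0.0048), and it was also called without Sh3gl1-/- follicular replicate 2 (0.94, adjusted p = 0.047) and without WT CD40L-cultured replicate 1 (0.77, adjusted p = 0.032) or 3 (0.77, adjusted p = 0.018). DESeq2 called it too (adjusted p = 0.024). The difference between the genotypes' responses was -0.30 (SE 0.42, 95% interval -1.19 to 0.60, adjusted p = 0.88 in edgeR), and it was 0.13 without WT CD40L-cultured replicate 3. The proliferation markers rose with Tfrc, 8 of 8 called in WT and 7 of 8 in Sh3gl1-/- cells, from sums of 219.8 to 285 CPM ex vivo to sums of 407 to 1469 CPM. Their part in the Tfrc response was not tested.

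Aco1 (ENSMUSG00000028405, chr4:40143081-40198338, plus strand) encodes iron regulatory protein 1, which serves as cytosolic aconitase when it holds an iron-sulfur cluster. It had 15.6, 23.7 and 23.9 CPM in WT follicular libraries and 29.8, 50.3 and 58.3 CPM after culture. The Sh3gl1-/- libraries had 20.1, 24.9 and 13.1 CPM ex vivo and 56.2, 30.2 and 51.5 CPM after culture. The cultured libraries lay above the ex vivo ones in both genotypes. Its log2 change was 1.11 (SE 0.29, adjusted p = 0.0066) in WT and 1.23 (SE 0.30, adjusted p = 0.0042) in Sh3gl1-/- cells in edgeR. Ireb2 (ENSMUSG00000032293, chr9:54863789-54912530, plus strand), the other iron regulatory protein, had a log2 change of -0.07 (SE 0.10, adjusted p = 0.62) in WT and fell in Sh3gl1-/- cells by 0.40 on the log2 scale (SE 0.10, adjusted p = 0.0069), from between 99.0 and 109 CPM to between 77.4 and 81.7 CPM. The difference between these 2 responses was -0.33 (SE 0.15, adjusted p = 0.55 in edgeR) and was not called.

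Fth1 rose after CD40L in Sh3gl1-/- cells (log2 fold change 1.44, SE 0.37, adjusted p = 0.0067 in edgeR), where each cultured library lay above the ex vivo range of 94.3 to 127 CPM. In WT cells the log2 change was -0.20 (SE 0.37, adjusted p = 0.68), and it was 0.39 (SE 0.32, adjusted p = 0.35) without WT follicular replicate 1, the library with 306 CPM. The difference between the responses was 1.64 (SE 0.52), the largest of the 10, with an unadjusted p of 0.0072 and an adjusted p of 0.47 in edgeR. It was not called. Fbxl5 fell in WT (-0.50, SE 0.15, adjusted p = 0.011) and in Sh3gl1-/- cells (-0.45, SE 0.15, adjusted p = 0.024). The latter call was lost without Sh3gl1-/- follicular replicate 2 (-0.30, adjusted p = 0.15) and without Sh3gl1-/- CD40L-cultured replicate 1 (-0.41, 0.077) or 2 (-0.41, 0.062).

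Hmox1 had 2.21, 1.61 and 2.27 CPM in WT and 3.18, 0.799 and 2.32 CPM in Sh3gl1-/- CD40L-cultured libraries, from between 10 and 45 counts each. All lay below their genotype's ex vivo libraries. The log2 change was -1.13 (SE 0.42, adjusted p = 0.037) in WT and -2.07 (SE 0.42, adjusted p = 0.0013) in Sh3gl1-/- cells in edgeR. The WT call was lost without WT follicular replicate 2 (-0.80), WT CD40L-cultured replicate 1 (-1.21), 2 (-0.98) or 3 (-1.21), Sh3gl1-/- follicular replicate 2 (-1.10) or Sh3gl1-/- CD40L-cultured replicate 3 (-1.10). Of the 9 macrophage markers tested, 8 fell and 1 rose in each genotype, and their part was not tested. Ncoa4 (0.38 in WT, 0.24 in Sh3gl1-/- cells) and Slc11a2 (-0.09 and -0.05) were not called. Without WT CD40L-cultured replicate 1 Ncoa4 was called higher in WT (0.59, adjusted p = 0.013 in edgeR). Slc11a2 (ENSMUSG00000023030, chr15:100387898-100425072, minus strand), the transporter DMT1 that moves iron out of the endosome, spanned 13.4 to 26.6 CPM over all 18 libraries, and its 6 group means lay between 19.0 and 23.6 CPM, with each group overlapping its neighbours.

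For the difference between the genotypes' CD40L responses, edgeR called 0 of the 10 genes, with 2 (Fth1 and Ireb2) at an unadjusted p under 0.05, and DESeq2 also called 0. Over all 14460 genes edgeR called 0 (0%), with 1278 at an unadjusted p under 0.05, and DESeq2 called 37. A response called in one genotype and not in the other, as for Tfrc, Fth1 and Ireb2, was thus not shown to differ between them.

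The third comparison set follicular against transitional cells. Hmox1, Fbxl5 and Ncoa4 were lower in follicular cells of both genotypes, and Tfrc was lower in WT follicular cells. Of the 10 genes, 0 were higher and 4 lower in WT, against 11.7% and 14.2% of all 14580 genes. Among Sh3gl1-/- cells 0 were higher and 3 lower, against 3.7% and 6.71%. No member was called higher in either genotype by edgeR or DESeq2, and in edgeR Fth1 in WT was the only one with a positive log2 fold change at an unadjusted p under 0.05.

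Hmox1 had 34.4, 84.6 and 34.8 CPM in WT and 94.2, 59.7 and 92.4 CPM in Sh3gl1-/- transitional libraries, against the follicular values of 3.50 to 11.4 CPM given above. The ranges were far apart in both genotypes. The log2 change was -3.54 (SE 0.38, adjusted p = 2.62e-05) in WT and -3.24 (SE 0.36, adjusted p = 5.55e-05) in Sh3gl1-/- cells in edgeR, the largest among the 10 genes in this comparison. The macrophage markers moved with it, summing to between 684 and 1193 CPM in transitional and between 127 and 305 CPM in follicular libraries, with 10 of 11 called lower in WT and 9 of 11 in Sh3gl1-/- cells. Over the 18 libraries the Pearson r between Hmox1 and that sum was 0.97 on the log2 scale, and 0.43 after the group means were taken out. The sum of the plasma cell markers (Sdc1, Jchain, Prdm1, Xbp1 and Tnfrsf17) was also higher in transitional libraries, at between 429 and 4572 CPM against between 64.1 and 177 CPM. Of these markers, 2 of 5 were called lower in follicular cells in each genotype. With the plasma cell sum Hmox1 had an r of 0.93 over the 18 libraries, and of 0.11 after the group means were taken out. The part of macrophages and plasma cells in the Hmox1 difference was not tested.

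Fbxl5 in WT cells was lower by 1.01 on the log2 scale in follicular cells (log2 fold change -1.01, SE 0.13, adjusted p = 8.60e-05 in edgeR), and in Sh3gl1-/- cells the log2 change was -0.53 (SE 0.13, adjusted p = 0.014). The Sh3gl1-/- call was lost without Sh3gl1-/- transitional replicate 2 (-0.39, adjusted p = 0.080) and without Sh3gl1-/- follicular replicate 1 (-0.44, 0.075) or 3 (-0.50, 0.063). Over the 6 groups Fbxl5 ran in order from WT transitional (217 CPM) to Sh3gl1-/- transitional (133 CPM), WT follicular (107 CPM), Sh3gl1-/- follicular (92.8 CPM), WT CD40L-cultured (77.1 CPM) and Sh3gl1-/- CD40L-cultured (68.8 CPM). The first 3 of these groups did not overlap one another, and from WT follicular on each overlapped its neighbour. Ncoa4 (ENSMUSG00000056234, chr14:32159865-32179855, plus strand) had 93.5 to 119 CPM in WT and 90.3 to 106 CPM in Sh3gl1-/- follicular libraries, below all transitional libraries of the same genotype. A processed pseudogene, Gm6768, is 99.9% identical to Ncoa4 over 1878 bases and had at most 9 counts in a library. Its log2 fold change was -0.66 (SE 0.11, adjusted p = 5.44e-04) in WT and -0.55 (SE 0.11, adjusted p = 0.0040) in Sh3gl1-/- cells in edgeR, and the latter was not called when all 18 libraries shared 1 fit (-0.53, adjusted p = 0.097). Over the 12 ex vivo libraries, Pearson's r with the summed proliferation and macrophage markers on the log2 scale was 0.825 and 0.60 for Fbxl5 and 0.813 and 0.75 for Ncoa4. These values include the differences between groups. After the group means were taken out, over all 18 libraries, r was 0.29 and -0.32 for Fbxl5 and 0.74 and 0.33 for Ncoa4. These libraries share depth and scaling, and the part of those cells was not tested.

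Tfrc was lower in WT follicular than in WT transitional cells (log2 fold change -0.87, SE 0.13, adjusted p = 3.78e-04 in edgeR), a call that held under each alternative tried. In Sh3gl1-/- cells it was -0.34 (SE 0.13, adjusted p = 0.12), with 1 follicular library, at 58.6 CPM, inside the transitional range. Without that library, Sh3gl1-/- follicular replicate 2, it was -0.48 (adjusted p = 0.036). Same-numbered libraries of a genotype deviated together across these 2 states. With the replicate number as a block within genotype, Tfrc was called in Sh3gl1-/- cells (-0.345, SE 0.09, adjusted p = 0.025 in edgeR). The difference between genotypes for Tfrc was 0.54 (SE 0.19, unadjusted p = 0.012, adjusted p = 0.23) and was not called. The proliferation markers were lower in follicular cells, 7 of 8 called in WT and 4 of 8 in Sh3gl1-/- cells, and 3 of 8 differed between the genotypes in this step. Their part was not tested.

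Fth1 moved in opposite directions in the 2 genotypes, with log2 fold changes of 0.74 (SE 0.31, adjusted p = 0.099) in WT and -0.96 (SE 0.31, adjusted p = 0.069) in Sh3gl1-/- follicular against transitional cells in edgeR. Neither was called. In WT the value was 0.15 without WT follicular replicate 1, and it was called without WT transitional replicate 3 (1.05, adjusted p = 0.038) or WT follicular replicate 3 (0.97, adjusted p = 0.041). Among Sh3gl1-/- cells it was called with the replicate block within genotype (-0.95, adjusted p = 0.044), and without WT follicular replicate 1 (-0.96, adjusted p = 0.0078) or 3 (-0.96, adjusted p = 0.049). The difference between the genotypes was -1.69 (SE 0.44), with an unadjusted p of 0.0018 and an adjusted p of 0.13. For this difference edgeR called 0 of the 10 genes, with 4 (Tfrc, Slc25a37, Fth1 and Fbxl5) at an unadjusted p under 0.05, and DESeq2 called 0. Over all 14580 genes, 0.0686% were called, which is 10 genes, or 99 with the replicate block within genotype.

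Steap3 (ENSMUSG00000026389, chr1:120190757-120272705, minus strand), the reductase that converts endosomal iron for export, had between 1 and 46 counts in a library. Its level was between 1.23 and 3.55 CPM in transitional, 0.0716 and 2.30 CPM in follicular and 0.0706 and 1.04 CPM in CD40L-cultured libraries. In all, 1 follicular and 3 CD40L-cultured libraries were under the floor of 3 counts. No difference was called in edgeR in the 8 comparisons that could test it, nor in DESeq2, which gave no adjusted p for the differences between genotypes in a response, and at this depth none could be told from the spread, the SE of its log2 fold changes being between 0.49 and 1.45.

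A wider set of iron genes, listed by function and excluding the 10 above and those the study displayed, had 71 of 73 symbols in the table. In transitional cells 3 of 63 tested were called, all higher in Sh3gl1-/- cells, a share near the 3.73% of all genes. These were Nfe2l2 (log2 fold change 0.36, SE 0.08, adjusted p = 0.044 in edgeR), the regulator of antioxidant genes NRF2, Hif1a (0.39, adjusted p = 0.046), a subunit of the hypoxia factor, and Alas2 (1.12, adjusted p = 0.044), the erythroid enzyme of haem synthesis, which is also 1 of the erythroid markers. In follicular cells 1 of 62 was called, again Nfe2l2. It had 92.0, 98.0 and 98.0 CPM in WT and 147, 146 and 133 CPM in Sh3gl1-/- follicular libraries, with a log2 change of 0.56 (SE 0.09, adjusted p = 0.015 in edgeR). After CD40L culture edgeR called 0 of 61, with 1 at an unadjusted p under 0.05, and DESeq2 called 0.

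After CD40L, 22 of the 62 wider iron genes tested were higher and 7 lower in WT, and 21 were higher and 5 lower in Sh3gl1-/- cells. Over all genes 23.6% were higher and 25.7% lower in WT, and 20.6% and 21.8% in Sh3gl1-/- cells. The median log2 fold change of the wider genes was 0.26 in WT and 0.13 in Sh3gl1-/- cells, against -0.08 and -0.03 over all genes. Of the 25 genes of mitochondrial iron and iron-sulfur clusters, 10 were higher and 3 lower in WT and 9 higher and 0 lower in Sh3gl1-/- cells. Of 5 storage and chaperone genes, 3 were higher in each genotype. Bola2, a cytosolic iron chaperone, rose from 55.8 to 58.5 CPM to 111 to 130 CPM in WT (log2 fold change 1.09, adjusted p = 1.46e-06) and by 0.85 in Sh3gl1-/- cells (adjusted p = 2.00e-05). Tmem14c, a mitochondrial transporter of haem precursors, rose by 1.07 and 0.83 on the log2 scale. Skp1a, a subunit of the ligase complex in which Fbxl5 acts, rose by 0.87 in WT (adjusted p = 6.25e-06), and Hspa9, a mitochondrial chaperone of cluster assembly, by 0.88 in Sh3gl1-/- cells (adjusted p = 8.23e-05 in edgeR). Both were also higher after culture in the other genotype. Mean Skp1a went from 179.5 to 264.8 CPM in Sh3gl1-/- cells, and mean Hspa9 from 74.4 to 141.5 CPM in WT.

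Among the wider genes that fell after CD40L, Blvrb, a biliverdin reductase, went from 95.2 to 39.4 CPM in WT and from 110.3 to 39.6 CPM in Sh3gl1-/- cells (log2 fold changes -1.30 and -1.50). Alas2 fell by 2.66 in WT and by 4.08 in Sh3gl1-/- cells on the log2 scale, with the erythroid markers. Nfe2l2 fell by 0.94 in Sh3gl1-/- cells. Hfe, whose protein binds the transferrin receptor, had 17 to 70 counts in follicular libraries and 0 counts in each of the 6 cultured libraries. Against a floor of 3 counts per library it was at least 11.6-fold lower in WT and at least 17.1-fold lower in Sh3gl1-/- cells. Of the 9 macrophage markers tested, 8 were also called lower and 1 higher in each genotype, and their part in the fall of Hfe was not tested. For the difference between the responses, edgeR called 0 of 62, with 3 at an unadjusted p under 0.05, and DESeq2 called 0.

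Between transitional and follicular cells, 13 of 63 wider iron genes were higher and 10 lower in WT, and 3 were higher and 4 lower in Sh3gl1-/- cells. Over all genes these shares were 11.7% and 14.2% in WT and 3.7% and 6.71% in Sh3gl1-/- cells. The counts of lower genes in both genotypes, and of higher genes in Sh3gl1-/- cells, are near them. Those higher in WT follicular cells included Hspa9 (log2 fold change 0.62), Nubp1 (0.68), a cytosolic cluster scaffold, and Bola2 (0.37). Bola2 was also higher in Sh3gl1-/- cells (0.44), as were Abcb10 (0.97) and Cpox (0.46), a haem synthesis enzyme. Hfe was lower in follicular cells of both genotypes (-2.56 and -2.19). So were 10 of 11 macrophage markers in WT and 9 of 11 in Sh3gl1-/- cells, whose part in the Hfe values was not tested. Alas1, the first enzyme of haem synthesis (-0.72), and Narfl (-0.65) were lower in WT, and Slc48a1, a haem transporter (-0.78), and the reductase Steap4 (-2.31) in Sh3gl1-/- cells. Each of these passed an adjusted p of 0.05 in edgeR. Genes were named by p-value within each genotype, so naming for a single genotype does not mean the other did not move. From transitional to follicular WT cells, mean Steap4 (7.83 to 1.29 CPM) and Slc48a1 (13.45 to 9.03 CPM) also went down. Abcb10 (8.12 to 17.18 CPM) and Cpox (13.39 to 18.95 CPM) went up there. In Sh3gl1-/- cells, mean Hspa9 (56.5 to 74.0 CPM) and Nubp1 (17.6 to 24.15 CPM) went up. Alas1 (39.6 to 35.1 CPM) and Narfl (43.2 to 33.2 CPM) went down. The difference between the genotypes was called for 0 of 63, with 6 at an unadjusted p under 0.05 in edgeR, and for 0 in DESeq2.

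Among the 10 genes themselves, Slc25a37 and Aco1 had the most opposed levels over the 18 libraries (Pearson r = -0.89 of log2 CPM), and after the group means were taken out r was -0.78. Within groups Tfrc went with Ncoa4 (r = 0.86) and Aco1 (0.71) and against Slc25a37 (-0.80), while with Fth1 it was -0.27. These values describe 18 libraries that share depth and scaling, and no test was made of them.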

How the data were processed

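RNA sequencing of 18 libraries, 3 in each of 6 groups, was analysed. The labels name a replicate mouse per library, and p-values measure the spread between these. The authors deposited expected counts, TPM and FPKM per gene from RSEM, and the FPKM values the authors deposited were not used. The submitters' processing notes name cutadapt 1.9.1, STAR 2.5.2a, RSEM 1.3.0 and GRCm38, whereas the study's methods describe TopHat and Cufflinks, and the library kit also differs between labels and methods. Whether counting used strand is not given in the sources used here, so reads of genes overlapping on opposite strands cannot be told apart. RSEM divides reads among similar transcripts, and between 28.5 and 31.0% of non-zero expected counts were not whole.

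Expected counts were rounded, filtered with edgeR's filterByExpr, scaled by TMM and tested in edgeR 4.0.16 by the quasi-likelihood test (R 4.3.3), with Benjamini-Hochberg adjustment over all genes tested and a threshold of 0.05. Genotype was tested within each cell state on its 6 libraries. The CD40L response and the step from transitional to follicular cells were each fitted on 12 libraries with an interaction. Intervals (95%) use the SE and degrees of freedom of the fit and so include the spread between libraries, and floors (3 counts) cover counting error only. DESeq2 1.42.0, other scalings and filters, a replicate block, 1 fit of all libraries and leaving out each library were alternatives. The follicular genotype fit and the fit of the difference between CD40L responses were tested on simulated counts with the same relative spread for each gene. The other fits were not tested in this way. Same-numbered libraries deviated together between transitional and follicular cells of one genotype (r between 0.103 and 0.264 over 15117 genes). Between follicular and CD40L-cultured cells r was 0.136 to 0.224 in WT and 0.030 to 0.119 in Sh3gl1-/- cells. In each of these pairs the same number was the best match. The main fits did not use this pairing and treated all libraries as independent. Whether same-numbered libraries came from the same mouse is not known here.

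Members, the wider iron list and the marker lists were chosen with earlier results of these data known. Named wider genes were those called with the smallest p-values in each direction. Copies were sought with blastn 2.17.0, and figures were drawn with matplotlib 3.10.9.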

Additional observations from a re-analysis of the deposited data

How the results depend on the processing

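Of 20 calls on the 10 genes, 13 held under every alternative. Among transitional cells, 2 of the 10 genes, 3 wider iron genes and 514 genes in all differed between genotypes. DESeq2 gave 12 wider iron genes and 1361 in all, a filter of at least 1 count gave 12 and 1426, and 1 fit of all 18 libraries gave 1 of the 10, 0 and 144. With the replicate block these were 0, 0 and 90, but numbers did not pair WT with Sh3gl1-/- libraries (r between -0.09 and 0.10). In follicular cells (0, 1 and 115) DESeq2 gave 355 genes, the 1-count filter 2 of the 10, 2 wider genes and 602 in all, the replicate block 212 and the fit of all libraries 49. After CD40L (3 genes) these were 79 with DESeq2, 216 with the 1-count filter (1 of the 10), 21 with the block and 82 with all libraries. For the difference between CD40L responses (0 genes), DESeq2 gave 37 and the 1-count filter 210, with 1 of the 10. For the difference between genotypes in the transitional to follicular step (10 genes), DESeq2 gave 365, the 1-count filter 462 with 1 of the 10 and 1 wider gene, the replicate block 20, the block within genotype 99 and all libraries 0. The 1-count filter also called Fth1 in each comparison where it was otherwise uncalled except the WT CD40L response, with the SE in follicular cells at 0.10 in place of 0.30. That block raised the members called in Sh3gl1-/- cells from 3 to 5. The cause was not tested.

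Leaving out 1 library gave, between genotypes in transitional cells, 0 to 2 of the 10, 0 to 3 wider and 28 to 479 genes. In follicular cells it gave 0 to 1 wider and 32 to 112 genes, and after CD40L 1 to 9 genes. The WT CD40L response kept 3 to 5 of 5 members, and its difference between genotypes gave 0 to 1 genes. For the transitional to follicular step it gave 12 to 23 wider (23) and 2444 to 3773 genes (3772) in WT, 2 to 6 wider (7) and 986 to 1647 genes (1518) in Sh3gl1-/- cells, and 0 to 23 genes for the difference. Signs changed by more than 1 SE for 6 uncalled log2 fold changes: Fth1 after CD40L in WT (-0.57 to 0.39), Steap3 (-2.19 to 0.78) and Tfrc (-0.49 to 0.13) in the difference between CD40L responses, Ireb2 (-0.12 to 0.05) and Aco1 (-0.35 to 0.089) in the Sh3gl1-/- step, and Hmox1 in the difference of the steps (-0.26 to 0.61). A further 53 sign changes of uncalled values lay within 1 SE and were counted as no change. Depth limits Steap3, with 1 to 46 counts in a library.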
